A study of Drosophila melanogaster with 384 samples.

Results

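Control neuroblasts that carried transcripts of ey, erm or opa were compared with control neuroblasts that lacked all 3. Of 180 control cells kept, 72 were positive (36 on each of plates 1 and 2), 50 on plate 1 and 52 on plate 2 were negative, and 6 lay between the thresholds, out of 365 kept cells and 384 wells in the whole series. The cells were chosen by their own reads: a positive cell had at least 20 raw reads of any of the 3 genes, and a negative cell had under 5 raw reads of each. A cell was kept if it had at least 100000 reads and 1000 genes. The levels of ey, erm and opa given below are therefore a description, and the 3 genes are left out of every count of genes.

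The cells were neural stem cells (neuroblasts) of wandering Drosophila melanogaster larvae, 6 to 7 days old and reared at 29 °C. They were sorted singly from dissected central brains into 96-well plates and sequenced with SMART-Seq2, a full-length method, after 18 PCR cycles. All larvae carried UAS-Dcr2/+ together with the inscGal4 driver and the membrane marker UAS-CD8::GFP/+. Control larvae, the only ones compared here, also carried sh-mCherry (BL35785)/+, a hairpin against a protein that flies do not make, while tumor larvae carried sh-brat (BL34646), a hairpin against brat. The insc driver is active in neuroblasts and its GFP can persist in their newest daughters, and Dcr2 and a hairpin are present in every larva, so no cell is from an unmanipulated animal. Both control plates hold cells of a single pool of 5 brains, whose cells cannot be traced to single animals. They are portions of 1 sample and not replicates of a condition, so the differences below carry no test.

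Fly neuroblasts change the transcription factors they express as they age and as their lineages advance, and this sets which neurons they make. The gene ey encodes a Pax6 factor, erm a zinc finger factor and opa a zinc finger factor of the Zic family. In the optic lobe, medulla neuroblasts pass through a temporal series that includes hth, opa, erm, ey, hbn, slp1, slp2, D, B-H1 and tll. In type II neuroblast lineages, erm, opa and ey are used in intermediate neural progenitors, transit-amplifying daughters that also use D, grh and ham. Neuroblasts of the mushroom body, the learning center of the brain, are known for ey and its Pax6 partner toy.

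In BDGP6 coordinates, ey lies on chromosome 4 from 697689 to 721173 on the plus strand, erm on chromosome 2L from 1950239 to 1970362 on the minus strand, and opa on chromosome 3R from 4852813 to 4869979 on the plus strand. All 3 are protein-coding, and no exon of another annotated gene overlaps their exons.

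Most positive cells passed through a single gene. Of the 72, 53 passed through 1 gene alone, with 27 through erm, 15 through ey and 11 through opa. Another 14 passed through exactly 2 genes, 6 with ey and opa, 5 with ey and erm and 3 with erm and opa, and 5 passed through all 3. Positive cells were 40.4% of the kept cells on plate 1 and 39.6% on plate 2.

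**Figure D1:**
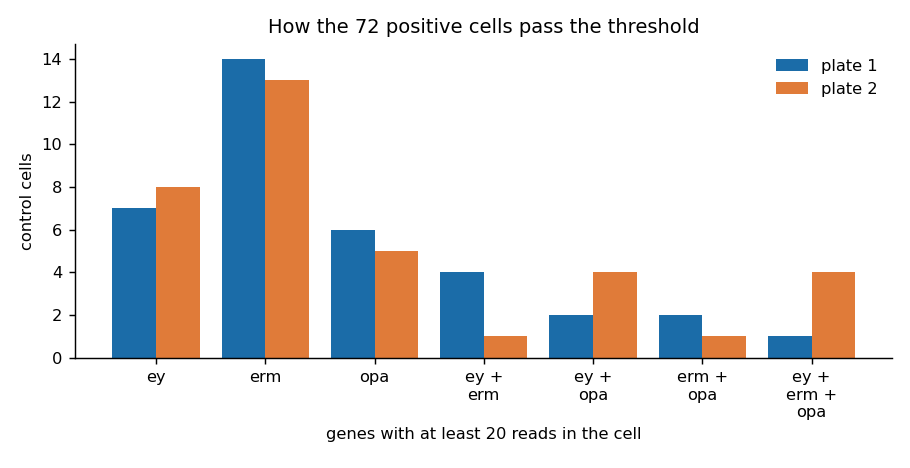
Bars give the number of control cells (vertical axis) that reached 20 reads of each gene or combination of genes (horizontal axis), on plate 1 (blue) and plate 2 (orange). Cells with erm alone were the most frequent on both plates, with 14 and 13 cells.

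Levels varied widely among the cells that passed. In the 31 cells past the threshold for ey, the gene ranged from 22 to 842 reads, with a median of 68.2 CPM (reads per 1000000 reads of the cell). In the 40 erm cells, erm ranged from 23 to 1087 reads with a median of 86.5 CPM, and in the 25 opa cells, opa ranged from 20 to 723 reads with a median of 63.9 CPM. All negative cells together held 7 reads of ey, 6 of erm and 6 of opa, and 88 of them held none of any. The 6 cells between had at most 6, 8, 9, 10, 11 and 15 reads of any of the genes, and the 4 lowest positive cells had 23, 25, 25 and 34. Summed over positive cells, ey and opa were lower on plate 1 (24.6 and 26.9 CPM) than on plate 2 (67.7 and 64.9 CPM), while erm was 64.9 CPM on plate 1 and 68.4 CPM on plate 2.

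Depth was similar in both sets. The median was 1545290 reads in positive cells and 1464580 in negative cells. After thinning every cell to 100000 reads, the median number of genes was 5110.5 in positive cells and 4950.5 in negative cells, with 4861.5 and 4548.5 on plate 1 and 5355 and 5298.5 on plate 2. The last well of each plate was a positive cell that detected more genes than any other kept cell of its plate, and it had few reads of all 3 genes. On plate 1 it had 34 reads of ey, 19 of erm and 20 of opa, and on plate 2 it had 41, 25 and 24. Whether those wells held more than 1 cell was not tested.

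Summed over cells, both sets carried the transcripts that define a neuroblast, though not every cell did. At least 5 reads of mira, the adaptor that sends fate determinants to the daughter, were found in 72 of 72 positive cells and in all but 1 of the negative cells. The lowest positive cell had only 5 reads of mira (3.33 CPM), no read of wor or ase, and 2552 CPM of the neuron marker elav. Levels of mira were 1528 CPM in positive cells and 1564 CPM in negative cells. The self-renewal factor dpn stood at 968 CPM in positive cells and 871 CPM in negative cells, and wor at 610.3 CPM in positive cells and 555 CPM in negative cells. The proneural factor ase, which type II neuroblasts lack, was found in 69 positive cells and 85 negative cells, with a log2 ratio of 0.46. Of 12 measured neuroblast identity genes only cas was at least 2-fold higher on both plates, and it rested on few cells. On plate 1 the positive cells richest in cas had 28 and 9 reads, the first being the gene-rich last well. On plate 2 a single positive cell had 2112 reads of cas.

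Transcripts of other cell types were compared as whole lists. Summed over 9 glial markers, the median cell had 544 CPM among positive cells (range 5.70 to 2444) and 496 CPM among negative cells (range 3.13 to 1415), and 42 positive and 51 negative cells exceeded 500 CPM. The 3 glial markers above the minimum level all had a log2 ratio above 0, with a median of 0.49: nrv2 was 477 CPM in positive and 425 CPM in negative cells, Eaat1 108.6 CPM in positive and 77.3 CPM in negative cells, and loco 41.2 CPM in positive and 23.1 CPM in negative cells. The other 6 were under the minimum, with the glial factor repo at 0.0547 CPM in positive cells and 0.117 CPM in negative cells and no read of alrm in either set. What part glial or neuronal transcripts have in the results was not tested. Of 6 hemocyte markers none reached the minimum level. Summed over 13 neuron markers, the median cell had 282 CPM among positive cells (range 104.6 to 3807) and 303 CPM among negative cells (range 17.3 to 5949), and 7 positive and 12 negative cells exceeded 500 CPM. None of 7 measured neuron markers and none of 3 measured glial markers was past 2-fold on both plates.

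Few genes differed by much between the sets. Of 6380 genes with a mean of at least 5 CPM over both sets, 35 (0.549%) were at least 2-fold higher in positive cells both pooled and on each plate, and 20 (0.313%) were at least 2-fold lower. By the pooled ratio alone, 74 (1.16%) were higher and 62 (0.972%) were lower. The median log2 ratio of positive over negative summed CPM over all these genes was 0.02, and 3439 of the 6380 had a ratio above 0. Intervals given below are 95% intervals for counting error only, exact Poisson for CPM and Clopper-Pearson for shares, since reads include PCR copies and cells of 1 pool are not replicates.

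**Figure D2:**
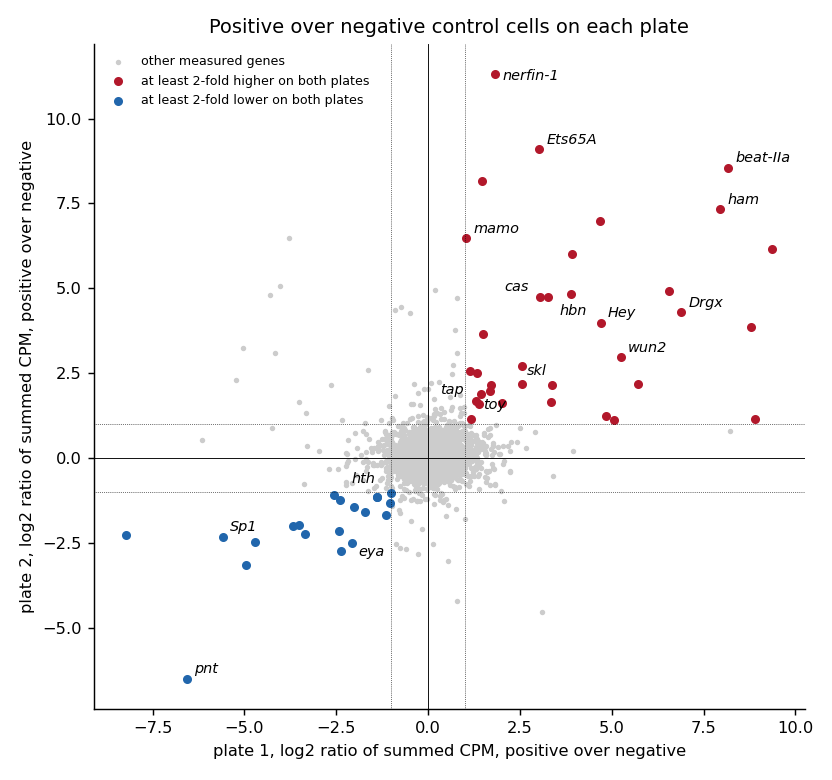
Each point is 1 of the measured genes, with the log2 ratio of summed CPM in positive over negative cells on plate 1 (horizontal axis) and plate 2 (vertical axis), and dotted lines mark 2-fold. The 35 genes higher on both plates (red) and 20 lower on both (blue) lie beyond the 2-fold lines on both axes, and a set with 0 reads was given a floor of 3 reads.

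The second Pax6 factor of flies, toy (chromosome 4, 989725 to 1007922, plus strand), differed in many cells. At least 5 reads were found in 41 of 72 positive cells (56.9%, interval 44.7 to 68.6) and in 24 negative cells (23.5%). With every cell thinned to 100000 reads, a toy read was found in 59.7% of positive cells and 23.5% of negative cells. Pooled levels were 126.9 CPM in positive cells and 35.7 CPM in negative cells, a log2 ratio of 1.83. On plate 1 toy was 129.5 CPM (126.5 to 132.5) in positive and 40.1 CPM (38.6 to 41.5) in negative cells, and on plate 2 it was 124.2 CPM (121.3 to 127.2) in positive and 31.4 CPM (30.1 to 32.7) in negative cells. Single cells overlapped between the sets, from 0 to 806 CPM (median 69.4) in positive cells and from 0 to 439.7 CPM (median 0) in negative cells. The 3 richest cells held 20.6% of the toy reads of positive cells, the smallest such share among the 35 genes.

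Cells with erm alone held toy most often, and cells with opa alone rarely. It was found at 5 or more reads in 20 of 27 cells with erm alone (187.5 CPM), 7 of 15 with ey alone (118.1 CPM), 13 of 19 with 2 or 3 of the genes (109.8 CPM) and 1 of 11 with opa alone (25.7 CPM), against 23.5% of negative cells (35.7 CPM). For erm alone the count was 11 of 14 cells on plate 1 and 9 of 13 on plate 2, against 12 of 50 negative cells on plate 1 and 12 of 52 on plate 2. The level for erm alone includes wells rich in daughter or neuron transcripts, described further on, with 336, 725 and 806 CPM of toy. The interval for opa alone reaches 41.3%, so a share below that of negative cells was not detectable with 11 cells.

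The homeodomain factor hth, which opens the medulla temporal series, ran the other way (chromosome 3R, 10507561 to 10639568, minus strand, where an antisense RNA overlaps its exons). At least 5 reads were found in 52 of 72 positive cells (72.2%, 60.4 to 82.1) and in 99 negative cells (97.1%, 91.6 to 99.4). The level was 241 CPM in positive cells and 432 CPM in negative cells, a log2 ratio of -0.84 that missed 2-fold on plate 2 (-1.10 on plate 1 and -0.54 on plate 2). Of the 20 positive cells under 5 reads of hth, 14 were past the threshold for erm. In the 40 erm cells hth was 123.6 CPM and 26 cells had 5 reads, and the log2 ratio to negative cells was -2.59 on plate 1 and -1.11 on plate 2.

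Cells with ey or opa alone held hth nearer the level of negative cells, at 359 CPM in 15 ey cells (14 with 5 reads) and 538 CPM in 11 opa cells (10 with 5 reads), against 432 CPM in negative cells. Cells past the threshold for 2 or 3 genes were low, at 117.8 CPM with 8 of 19 cells at 5 reads. As a pair, 16 of 72 positive cells had 5 reads of toy and under 5 of hth, against 1 negative cell.

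**Figure D3:**
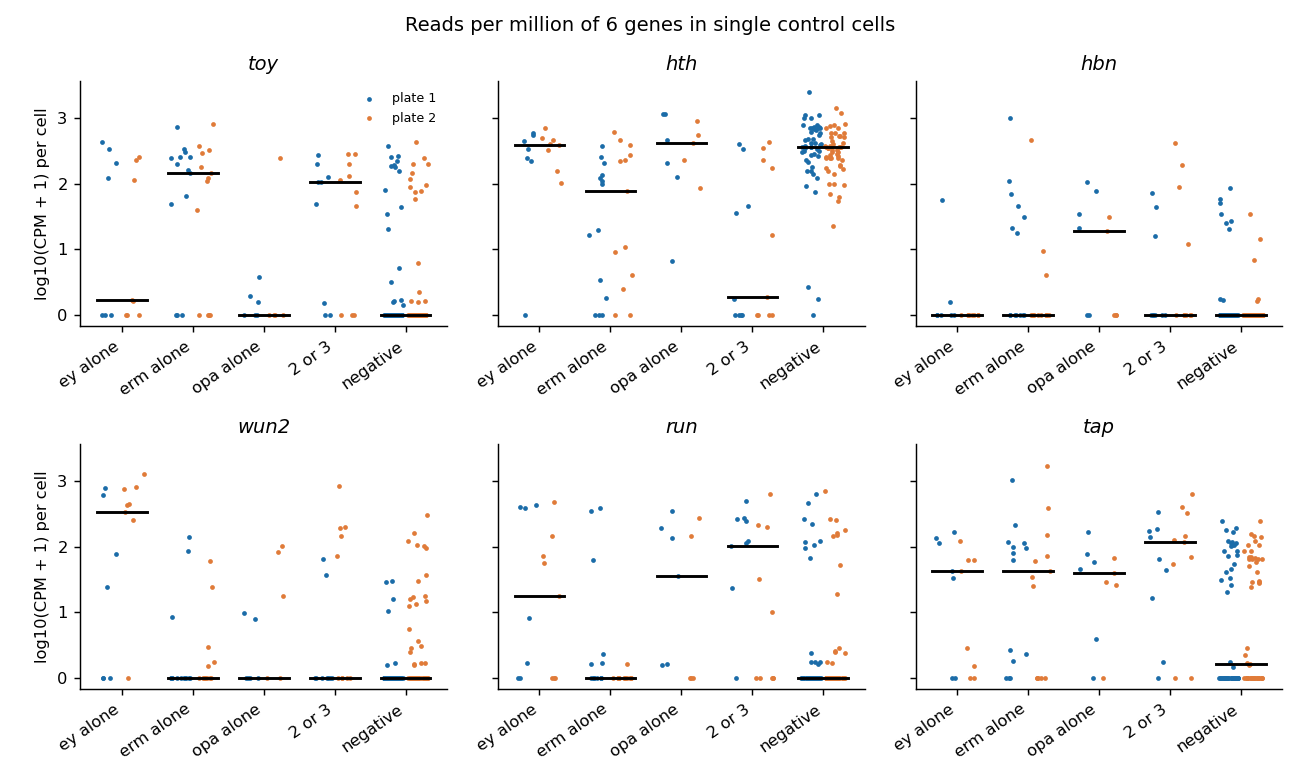
Each point is 1 control cell, with log10(CPM + 1) on the vertical axis, for cells past 20 reads of ey alone, erm alone, opa alone or 2 or 3 of the genes and for negative cells, and black bars mark medians. Plate 1 is blue and plate 2 orange, and toy had under 5 reads in 10 of 11 cells with opa alone.

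Each subset was also set against the same negative cells, so these ratios share their denominator. Over all cells with erm, 70 of 6385 genes (1.1%) were at least 2-fold higher on both plates and 40 (0.626%) lower, hth among the lower. Over all cells with ey, 19 of 6352 genes were higher (0.299%) and 41 lower (0.645%). Over all cells with opa, 37 of 6360 genes were higher (0.582%) and 49 lower (0.77%). Cells with erm alone gave 1.61% of genes higher and 0.53% lower, and cells with ey alone gave 0.285% higher and 1.25% lower. Cells with opa alone gave 0.663% higher and 1.77% lower, and cells with 2 or 3 of the genes gave 0.897% higher and 0.803% lower. Smaller subsets rest on fewer cells, and what part that has in these counts was not tested. The cells with erm alone include wells rich in Hey, a transcript of newborn neurons, at 3614, 4287 and 4462 CPM, described further on. What part those wells have in the counts for erm was not tested either.

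The gene wun2, a lipid phosphate phosphatase known for guiding germ cells, was frequent in cells with ey (chromosome 2R, 9414342 to 9417846, plus strand). It was found at 5 reads in 11 of 15 cells with ey alone, 4 of 7 on plate 1 and 7 of 8 on plate 2, against 3 of 50 negative cells on plate 1 and 16 of 52 on plate 2. The level was 369.8 CPM in cells with ey alone, with 219 CPM on plate 1 and 513 CPM on plate 2. Negative cells held 11.03 CPM, with 1.47 CPM on plate 1 and 20.6 CPM on plate 2. Cells with erm alone held 9.45 CPM, with 5 of 27 at 5 reads. Over all positive cells wun2 was 107.98 CPM against 11.03 CPM in negative cells, a log2 ratio of 3.29.

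The pair-rule factor run was found in cells with ey alone or opa alone more than in cells with erm alone. It reached 5 reads in 9 of 15 cells with ey alone, 6 of 11 with opa alone and 13 of 19 with 2 or 3 of the genes, and in 3 of 27 cells with erm alone, against 18 negative cells (17.6%). Levels were 136.7 CPM with ey alone, 110.2 CPM with opa alone and 31.2 CPM with erm alone, against 42.9 CPM in negative cells. Over all positive cells run was 94.04 CPM against 42.9 CPM in negative cells and missed 2-fold on plate 2 (log2 ratios of 1.48 on plate 1 and 0.47 on plate 2). Since run was named for ranking with ey and opa over these same cells, its values by subset are a description and no separate support.

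The homeodomain factor hbn, which follows ey in the medulla series, was present in a minority of cells (chromosome 2R, 20954668 to 20960909, minus strand). At least 5 reads were found in 24 of 72 positive cells (33.3%, 22.7 to 45.4) and 10 negative cells (9.80%, 4.80 to 17.3). It was found in 6 of 11 cells with opa alone, 10 of 27 with erm alone and 1 of 15 with ey alone. The summed levels of 38.6 CPM in positive cells and 2.99 CPM in negative cells gave a log2 ratio of 3.69, but 61.6% of the positive reads came from 3 cells. Without 6 wells rich in daughter or neuron transcripts, described further on, levels were 15.04 CPM in positive cells and 3.04 CPM in negative cells, a log2 ratio of 2.31.

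Of 10 measured medulla temporal factors 2 were higher, hbn and nerfin-1, and none was lower, with a median log2 ratio of 0.17 beside 0.02 for all genes. Over all 6380 genes 0.549% were higher and 0.313% lower, and counts of list members above and below stand beside these shares. For nerfin-1, 3 cells held 78.9% of the positive reads. Without the 6 wells its plate 1 log2 ratio was 0.68, under 2-fold. D was 173.3 CPM in positive cells and 162.6 CPM in negative cells, with log2 ratios of 0.83 on plate 1 and -0.86 on plate 2. D was found in 1 of 11 cells with opa alone (2.85 CPM), 5 of 15 with ey alone (260.3 CPM) and 9 of 27 with erm alone (222 CPM), against 23 negative cells (22.5%). The pair-rule factor slp1 was 36.2 CPM in positive and 41.8 CPM in negative cells, and slp2 was 27.1 CPM in positive and 22.8 CPM in negative cells. tll was 292 CPM in positive cells and 233 CPM in negative cells. B-H1 was found in 5 positive and 7 negative cells. SoxN stood at 264 CPM in positive cells and 218 CPM in negative cells.

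Of 7 measured factors of intermediate neural progenitors, 2 were higher (hbn and ham) and none was lower, with a median of 0.10. grh was 336.5 CPM in positive and 327 CPM in negative cells, and fru was 103.7 CPM in positive and 96.6 CPM in negative cells. The factor ham, which limits progenitor division in type II lineages, was found at 5 reads in 3 positive and 2 negative cells, and 3 cells held 99.7% of the positive reads.

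No positive cell held the set of type II neuroblast markers. Of 4 such markers (pnt, btd, tll and Sp1), 3 or more reached 5 reads in 8 control cells, of which 0 were positive, 7 were negative and 1 lay between, and the exact interval for 0 of 72 positive cells reaches 4.99% (3 cells of 72 would be 4.17%). pnt alone reached 5 reads in 2 positive and 8 negative cells, at 0.246 CPM in positive and 22.6 CPM in negative cells. Sp1 was 2.13 CPM in positive and 11.1 CPM in negative cells, and btd was 0.556 CPM in positive and 2.80 CPM in negative cells. Without the 8 cells, of which only the 7 negative ones were in the comparison, the log2 ratios of pnt and Sp1 were 0.14 and 0.084. Those cells were picked by reads of these markers, so leaving them out was bound to lower the negative levels.

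Of 7 measured mushroom body factors, 2 were higher (toy and mamo) and none was lower. The eye and mushroom body factor dac was found in 10 of 27 cells with erm alone and 0 of 15 with ey alone, against 11 negative cells (10.8%). The homeodomain factor Rx had no read in the 15 cells with ey alone, was found in 3 of 27 cells with erm alone and 3 of 11 with opa alone, and in 5 negative cells (4.90%). For mamo, 3 cells held 95.7% of the positive reads.

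Of 8 measured optic lobe epithelium and spatial factors, eya was lower and none was higher. eya, the eye-field cofactor and phosphatase, was found in 7 positive and 23 negative cells (22.5%), at 7.39 CPM in positive and 36.1 CPM in negative cells (log2 ratios of -2.08 on plate 1 and -2.51 on plate 2). With opa alone it was found in 2 of 6 cells on plate 1 and 1 of 5 on plate 2. With erm alone the counts were 0 of 14 and 2 of 13, and with ey alone 0 of 7 and 0 of 8. mab-21 also differed on both plates (-2.42 and -2.14), at 9.26 CPM in positive cells and 45.3 CPM in negative cells, with 7 positive and 26 negative cells at 5 reads. mirr, an Iroquois homeodomain factor, was 17.6 CPM in positive and 63.3 CPM in negative cells, but it was 105.8 CPM in cells with opa alone, in 3 of 11 cells. Optix was found in 14 positive (19.4%) and 34 negative cells (33.3%). Its pooled log2 ratio was -0.67, but with cells weighted equally it was 0.90. Single positive cells reached 9635 and 6415 CPM of Optix, against at most 1430 CPM in any negative cell.

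Among 7 measured Hox and head patterning genes, ind and Dr were higher and mirr lower. ind was found in 8 positive and 7 negative cells, and Dr in 7 positive and 3 negative cells. Of 6 measured optic lobe neuron factors toy and Ets65A were higher and Lim1 and TfAP-2 lower. Lim1 was 7.42 CPM in positive and 39.1 CPM in negative cells, and 3.37 CPM in positive and 18.98 CPM in negative cells without the 6 wells named above. Without those wells Ets65A, at 1.20 CPM in positive and 0.0421 CPM in negative cells, fell under the minimum level, and TfAP-2 had a log2 ratio of -0.90 in place of -1.66. Of 15 measured cell adhesion genes, Dscam1 and Dscam2 were higher and the median was 0.56. Without the 6 wells Dscam2 was 1.56 CPM in positive and 0.105 CPM in negative cells, under the minimum level, while Dscam1 was still past the limits with a log2 ratio of 2.56.

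Further genes that met the rule for naming were skl, RapGAP1, tap and Cyp12c1, which were higher, and GstD3 and CG31038, which were lower. skl, a proapoptotic gene, was 34.04 CPM in positive and 6.31 CPM in negative cells (log2 ratios of 2.55 on plate 1 and 2.18 on plate 2), with 38 positive and 28 negative cells at 5 reads. It was found in 14 of 27 cells with erm alone, 10 of 15 with ey alone and 2 of 11 with opa alone. tap, a bHLH factor, was 114.5 CPM in positive and 40.7 CPM in negative cells, with 48 positive and 46 negative cells at 5 reads. RapGAP1, a Rap GTPase activator, was 48.2 CPM in positive and 13.7 CPM in negative cells.

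Without the 6 wells rich in daughter or neuron transcripts, tap had a log2 ratio of 0.89 in place of 1.49 and RapGAP1 0.53 in place of 1.82, both under 2-fold. Cyp12c1, a cytochrome P450, was 32.4 CPM in positive and 14.5 CPM in negative cells, with log2 ratios of 1.16 on both plates. GstD3, a glutathione S-transferase with close relatives among which reads could be split, was 9.78 CPM in positive and 25.995 CPM in negative cells. The shares of cells with 5 reads of GstD3 were closer, at 17 positive (23.6%) and 31 negative cells (30.4%). For GstD3, 3 cells held 73.8% of the positive reads and 3 held 40.6% of the negative reads. CG31038 was 7.74 CPM in positive and 15.8 CPM in negative cells, and its log2 ratio of -1.03 became -0.67 without those 6 wells.

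Many of the largest ratios rested on a few cells. Of the 35 higher genes, 29 had 50% or more of the positive reads in 3 cells and 16 had 90% or more, while over all 6380 genes the median share held by 3 positive cells was 14.1%. Of the 20 lower genes, 11 had 50% or more of the negative reads in 3 cells. Over all 6380 genes the median share held by 3 negative cells was 12.5%. Wells were singled out for Hey, a Notch target of newborn neurons, for ham or for the synaptic gene nSyb. On plate 1, a pair of cells with erm alone held 3614 and 4287 CPM of Hey, and on plate 2 a cell with erm alone held 4462 CPM, against at most 827 CPM in any negative cell. The plate 1 cell with 4287 CPM had 3.33 CPM of mira, no read of wor and 2552 CPM of the neuron marker elav. The other plate 1 cell had 771 CPM of mira with 1115 CPM of elav, and the plate 2 cell had 283 CPM of mira with 1921 CPM of elav. A plate 2 cell past the threshold for ey and opa held 387 CPM of ham and 1918 CPM of cas. Among negative cells, 1 cell had 827 CPM of Hey and 15.2 CPM of mira, and another had 376 CPM of nSyb and 1.12 CPM of mira.

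**Figure D4:**
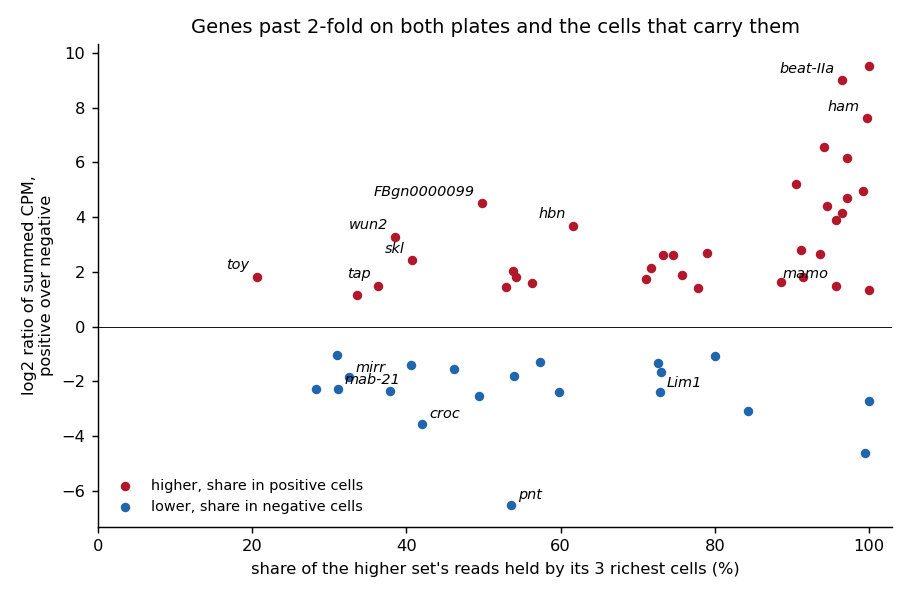
Each point is a gene past 2-fold on both plates, with the share of the reads of the higher set held by its 3 richest cells (horizontal axis, %) and the log2 ratio of summed CPM in positive over negative cells (vertical axis). The share lay at 20.6% for toy and 38.5% for wun2, and at 99.7% for ham.

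Leaving those 6 wells out, a choice made after their values were seen, left 17 genes higher and 15 lower. Of these, 12 and 15 were among the 35 and 20. toy (log2 ratio 1.68), wun2 (3.22), skl (2.15), hbn (2.31) and Cyp12c1 (1.21) were still past the limits, while Hey (0.87), ham, cas, mamo, nerfin-1, Dscam2 and Ets65A no longer met the minimum level or the 2-fold limit.

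Of 13 measured Notch targets all had a log2 ratio above 0, beside 3439 of all 6380 genes, with a median of 0.53, and Hey was past 2-fold on both plates. E(spl)m2-BFM was 15.3 CPM in positive and 4.54 CPM in negative cells, with log2 ratios of 0.69 on plate 1 and 2.74 on plate 2. E(spl)mdelta-HLH was 46.2 CPM in positive and 23.9 CPM in negative cells, with log2 ratios of 0.94 on plate 1 and 0.96 on plate 2. Of 8 measured type I and ganglion mother cell genes, tap, Hey and nerfin-1 were higher and the median was 0.50. None of these was past the limits without the 6 wells rich in daughter or neuron transcripts. There the log2 ratios were 0.89 for tap, 0.87 for Hey and, on plate 1, 0.68 for nerfin-1.

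None of 21 measured DNA replication genes, 28 mitosis genes, 11 glycolysis genes, 41 respiratory chain genes, 10 SWI/SNF subunits and 16 genes of asymmetric division was past 2-fold on both plates. Their medians lay between -0.09 for the respiratory chain and 0.06 for SWI/SNF subunits. Over all 6380 genes only 0.549% were higher and 0.313% lower, so lists this short could hold none at that rate. Of the 41 respiratory chain genes 10 had a ratio above 0, beside 3439 of all 6380 genes. CycB3, a mitotic cyclin, was 1147 CPM in positive cells and 1005 CPM in negative cells, and E2f1, which drives entry into S phase, was 517 CPM in positive cells and 459 CPM in negative cells. Of 13 heat shock and stress genes none was past 2-fold, 3 were above 0 (beside 3439 of all 6380 genes) and the median was -0.27, with Hsp26 at 1309 CPM in positive cells and 1926 CPM in negative cells.

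Of 9 measured genes that change as neuroblasts age, mamo and cas were higher. Without the 6 wells rich in daughter or neuron transcripts both fell under the minimum level. There mamo was 3.75 CPM in positive and 0.948 CPM in negative cells, and cas 6.73 CPM in positive and 1.01 CPM in negative cells. The late factors Syp (7543 CPM in positive and 8682 CPM in negative cells) and Eip93F (137.6 CPM in positive and 147.9 CPM in negative cells) lay within 2-fold, as did chinmo (199.9 CPM in positive and 180.3 CPM in negative cells).

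**Figure D5:**
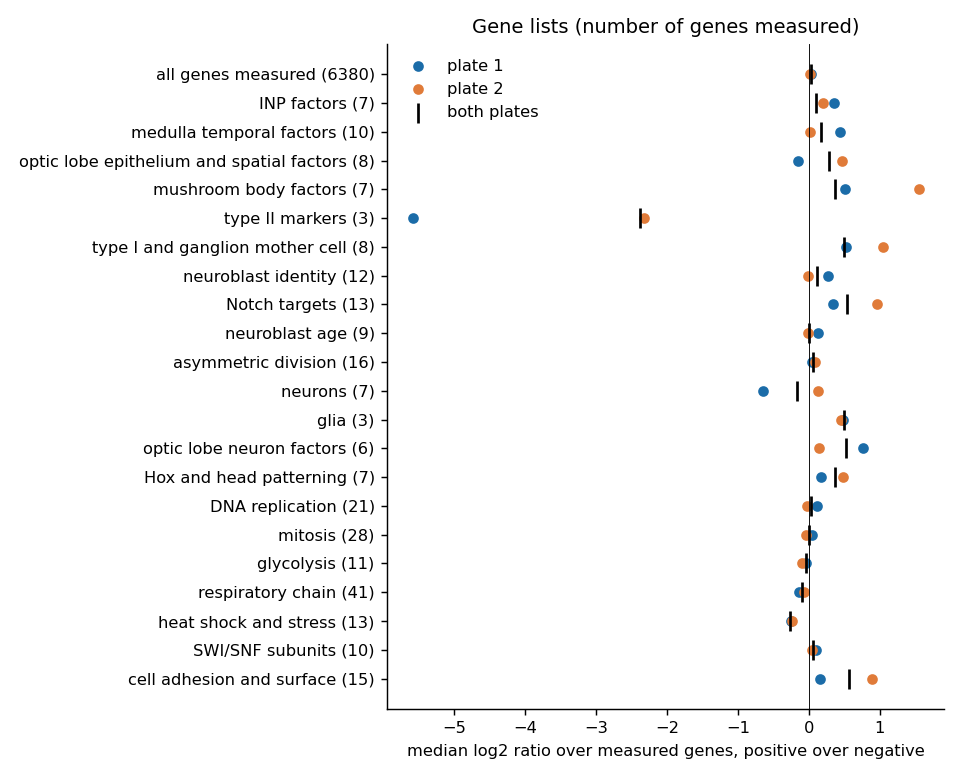
Each row is a gene list with the number of its genes measured, and marks give the median log2 ratio of positive over negative cells on plate 1 (blue), plate 2 (orange) and both plates (black bar). Pooled medians ranged from -2.39 for type II markers to 0.56 for cell adhesion genes, beside 0.02 for all genes.

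As a description over 180 cells thinned to equal depth, all of 1 pool, the genes whose reads ranked most like those of ey were wun2 (Spearman 0.39) and run (0.34), followed by loco, myo and comm. For erm they were toy (0.40), bi (0.39), skl (0.36), tna and Ten-a, and hth ranked most opposed at -0.45. For opa they were hbn (0.34), CG12990, run (0.28), CD98hc and Cyp12c1. The 3 genes ranked with each other at 0.33 for ey and opa, 0.15 for ey and erm and 0.13 for erm and opa. The T-box factor bi was found in 18 of 27 cells with erm alone, 4 of 15 with ey alone and 3 of 11 with opa alone, against 29 negative cells (28.4%). In all cells with erm, bi was at least 2-fold higher on both plates, with log2 ratios of 1.65 and 1.61. Since bi was named for ranking with erm over these same cells, these values are a description and no separate support.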

How the data were processed

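The authors' deposited table holds raw read counts per gene and cell, as the values show. Per the submitters' processing notes the builds were BDGP6 and dm6. The sources used here give no aligner, counter or strand setting. Of 14219 features, 13702 matched a gene symbol. Plates were taken from the cell numbers and repeated well indexes. Counts were summed per set of cells and divided by the summed reads (CPM), and ratios were taken pooled and per plate, with a floor of 3 reads where a set had 0. The members and the 22 gene lists were chosen with earlier results of these data known. Named genes were up to 12 per direction with a mean of 5 CPM, a read in 25% of thinned cells of the higher set and 2-fold ratios pooled, on each plate and with cells weighted equally, plus list members and the 5 genes ranking most like each rule gene. repo, alrm and nSyb were chosen after their values were seen. The ratio step was tested on simulated data. Python 3.11.15, pandas 2.3.3, scipy 1.17.1, R 4.3.3 and edgeR 4.0.16 (for TMM factors) were used.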

Additional observations from a re-analysis of the deposited data

Results flagged for a closer look

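Signals of the same genes appeared in cells that the comparison does not use. In the kept tumor cells, erm stood at 31.2 CPM against 27.9 CPM in 180 kept control cells, and opa stood at 33.5 CPM against 19.1 CPM. The gene ey went the other way, at 7.93 CPM in tumor cells and 19.3 CPM in control cells. Fewer tumor cells carried each of the 3: 12 tumor cells and 40 control cells had 20 reads of erm, 6 tumor cells and 25 control cells had 20 reads of opa, and 5 tumor cells and 31 control cells had 20 reads of ey. The 3 richest tumor cells held 51.3% of the erm reads and 76.9% of the opa reads of the tumor pool, against 34% and 39.8% in the control pool. In the 12 control wells left out for depth, erm stood at 17 CPM and opa at 13.6 CPM, which rest on 5 and 4 reads of 293641.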

How the results depend on the processing

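No paired analysis was possible because the numbers in the cell names only count cells, and no result comes from a test. The counts of 35 genes higher and 20 lower became 60 higher after thinning, 76 higher and 3 lower by the median over cells, 17 higher without the wells rich in Hey, ham or nSyb, 311 and 247 with no minimum level, and 14 and 4 with a minimum of 20 CPM. They were 35 and 22 with TMM or median-of-ratios scaling. Split by gene and as percents of measured genes, 0.549% higher and 0.313% lower became 0.299% and 0.645% in ey cells, 1.1% and 0.626% in erm cells, 0.77% lower in opa cells, 0.285% and 1.25% with ey alone, 1.61% and 0.53% with erm alone, 1.77% lower with opa alone, and 0.897% and 0.803% with 2 or 3 genes. The positive cells numbered between 62 and 75 under the other thresholds.

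Ratios on the log2 scale that changed sign follow, and unless the setting removes the cells that carried the reads the cause was not tested. With ey alone they were CG14989 -0.96, Dscam1 -0.61, Ets65A -0.41, SP2353 -2.26, Hey -0.45, mamo -4.91, cas -3.03, ham -1.25 and Cyp12c1 -0.18, and in ey cells mamo -2.99, CG14989 -0.79 and Dscam2 -0.11. With erm alone wun2 was -0.22, and with 2 or 3 genes CG14989 was -0.91 and mamo -2.46. With opa alone they were skl -1.004, CG14989 -0.48, toy -0.48, Cpr76Bc -8.65, RapGAP1 -0.49, Dr -6.94, mirr 0.74, nerfin-1 -6.62, ind -5.92, Ets65A -5.23, cas -0.73, Hey -6.01, ham -0.68, mamo -6.34 and SP2353 -4.01, and in opa cells Dr -1.05, CG14989 -0.95, nerfin-1 -0.32, mamo -2.83 and ind -3.51. Without the Hey, ham or nSyb wells ham was -0.78 and CG14989 -1.38, and without type II-like cells Sp1 was 0.084 and pnt 0.14. Ratios with 0 reads in a subset use the floor of 3 reads. CG14989, SP2353 and Cpr76Bc, the splits by 1 gene alone or by 2 or 3 genes and the removal of the Hey, ham or nSyb wells were chosen after seeing the data.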

Other observations

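The share of cells with at least 20 reads of any of ey, erm and opa was 8.65% of tumor cells (16 cells, 95% interval 5.02 to 13.7, for counting error only) and 72 of 180 in control cells (40.0%, 32.8 to 47.6). With every cell thinned to 100000 reads, a read of any of them was found in 9.73% of tumor cells and 40.0% of control cells. Median depth was 1122670 reads in tumor cells and 1507070 in control cells. Each condition is 1 pool of brains, so brain pool and genotype cannot be told apart.

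The genes wun2 and run, which ranked most like ey over these same cells, did not always share cells. Of 15 control cells with ey alone, 7 had 5 reads of both, 4 of wun2 only and 2 of run only, against 3, 16 and 15 negative cells.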
